A study of Rattus norvegicus with 48 samples.

Results

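Decorin (Dcn) and lumican (Lum), 2 small leucine-rich proteoglycans, were followed through RNA sequencing of precision-cut rat liver slices, thin sections of living liver kept outside the body. They were chosen by identifier, ENSRNOG00000004554 for Dcn and ENSRNOG00000004610 for Lum, and are 2 of the 32883 genes in the deposited count table. The series set up a slice model of liver fibrosis for testing compounds, with 48 libraries in 5 groups. Total counts ran from 12249470 to 29596987 per library.

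Slices were cut from livers of sham-operated rats or of rats whose bile duct had been tied off (bile duct ligation, BDL), which dams up bile and scars the liver around the ducts. Vehicle was given to 9 sham slices (Sham_veh) and 10 ligated slices (BDL_veh). Among ligated slices, 10 received Sora (BDL_Sora), another 10 received Nint (BDL_Nint) and 9 received SB525334 (BDL_SB525334). The short forms Sora and Nint are taken to mean sorafenib and nintedanib, which inhibit several receptor tyrosine kinases, although the labels do not spell them out. ALK5, the kinase of the type I TGF-beta receptor, is the target of SB525334. The deposited sample sheet gives those 9 libraries the code BDL_EXT-1024, and the compound is named here as in the labels. No group combined sham surgery with a compound. The labels give no strain, age, dose, exposure time or number of animals, and slices of a group may come from shared livers. The p-values below therefore measure the spread between libraries, which may be technical.

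Small leucine-rich proteoglycans are secreted proteins whose curved leucine-rich core binds collagen fibrils and sets their width and spacing. Decorin carries a chondroitin or dermatan sulfate chain, binds collagen I, and also binds TGF-beta and several receptor tyrosine kinases. Lumican carries keratan sulfate or short sugar chains and limits the sideways growth of collagen fibrils, as is known from cornea and skin. In liver both are made mainly by stellate cells, portal fibroblasts and the myofibroblasts that arise from them, and hepatocytes make little of either. The files pair no identifier with a symbol, so the markers of these cell types could not be read from the tables, nor could the liver label be checked against its defining genes. In bulk tissue, fewer cells of a type and less RNA per cell cannot be told apart.

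Dcn and Lum lie next to each other on rat chromosome 7, followed by Kera and Epyc (keratocan and epiphycan), 2 more members of the same protein family, in the RefSeq gene table of assembly GRCr8. The 250 bases before the start site of Lum are shown because Lum is the member that the promoter table used here matched. They lie at chr7:34245456-34245705 on the plus strand (RefSeq, GRCr8), with a GC content of 52.8%, and are written 5′ to 3′.
Lum promoter: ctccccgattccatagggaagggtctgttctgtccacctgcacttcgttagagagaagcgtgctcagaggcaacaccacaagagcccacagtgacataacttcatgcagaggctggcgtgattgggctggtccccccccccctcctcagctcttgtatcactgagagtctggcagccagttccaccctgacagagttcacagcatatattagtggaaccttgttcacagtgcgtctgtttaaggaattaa
No letters are in capitals because none of the 4 motifs searched on both strands occurred in it. The TATA box TATAAA was found in 12.9% of the 33469 rat promoters of this length, the Smad box CAGACA in 17.2%, the AP-1 site TGANTCA in 6.34% and the TEAD site GGAATG in 12.1%. The missing matches say only that these letters are not in this window.

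Ligation raised both genes in every library. Levels are given as CPM, counts relative to the total of the library, after scaling with TMM factors, which assume that most genes do not change. Between ligated vehicle and sham that assumption was not met. Of 14775 genes tested, 5911 were higher and 6235 lower at an edgeR adjusted p under 0.05. Dcn in sham slices had a lowest value of 14.3 CPM, a median of 34.3 and a highest of 59.0, with a mean of 34.7 ± 14.7 CPM (SD, n = 9). In ligated slices with vehicle the lowest was 731, the median 981 and the highest 1112, with a mean of 960 ± 105 CPM (SD, n = 10). All 10 ligated libraries stood above all 9 sham libraries. How many of all genes separate groups in this way was not counted, here or in the comparisons below. The log2 fold change was 4.79 (SE 0.167, edgeR adjusted p = 1.52e-29), which as a ratio of mean levels is 27.7-fold. Among the 14775 genes tested, 5131 had a higher mean CPM than Dcn in sham slices and 76 in ligated ones.

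Lum was scarce in sham slices. Its rounded counts there ranged from 1 to 15 per library and added up to 47 (95% Poisson interval 34.5 to 62.5, for counting error only). The sham levels had a lowest value of 0.0773 CPM, a median of 0.274 and a highest of 1.02, with a mean of 0.374 ± 0.277 CPM (SD, n = 9). With ligation the lowest was 7.08, the median 16.9 and the highest 36.4, with a mean of 18.3 ± 8.35 CPM (SD, n = 10). The groups did not overlap, and the log2 fold change was 5.58 (SE 0.315, edgeR adjusted p = 2.5e-21). Both members were among the genes called higher with ligation, as were 40.0% of all genes tested. A rise larger than that of Dcn was fitted for 558 genes, and one larger than that of Lum for 299. With library totals in place of TMM factors the rises were 5.14 and 5.92, while the median of all genes moved from -0.05 to 0.30. The share of reads in introns was 27.4% ± 2.13 in sham (SD, n = 9) and 35.6% ± 0.895 in ligated vehicle (SD, n = 10), and with the quality component in the fit the rises were 4.91 for Dcn and 5.25 for Lum. The component ran from 0.73 to 1.59 in sham and from -1.72 to -0.47 in ligated vehicle. Without overlap between them, that fit cannot tell quality and ligation apart.

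**Figure D1:**
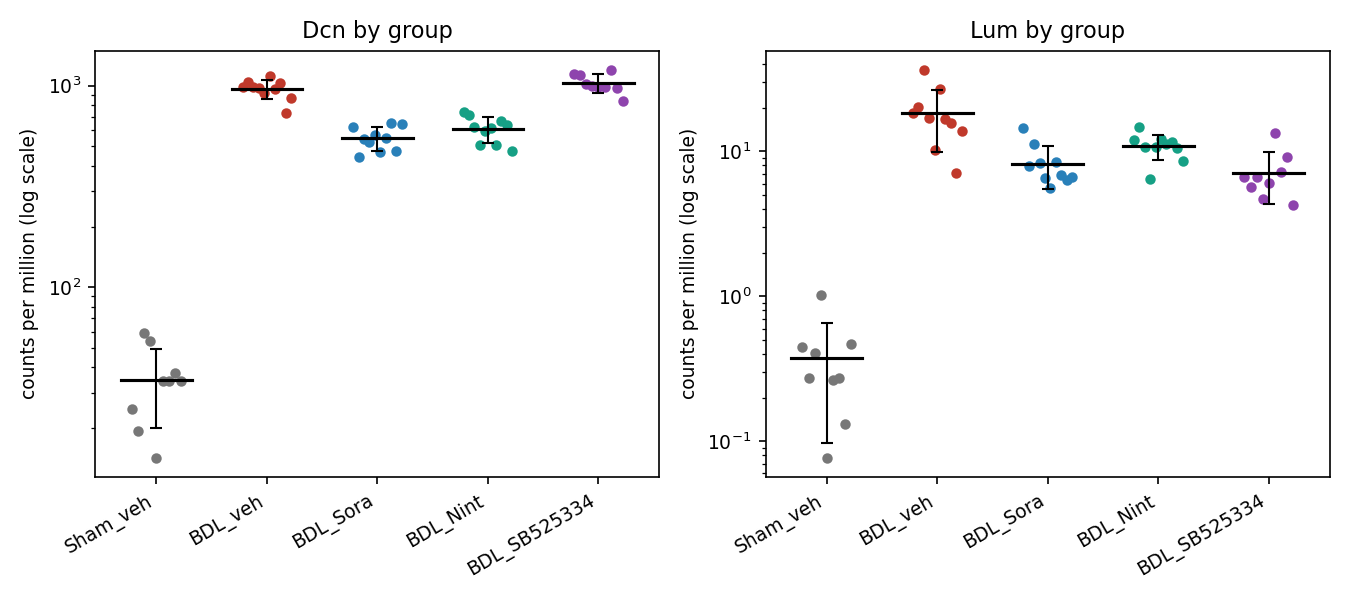
Dcn (left) and Lum (right) in CPM on log axes, with 1 point per library, the mean as a line and 1 SD as the error bar, for the 5 groups. Sham libraries lie below every ligated library in both panels, and SB525334 libraries sit with vehicle for Dcn (837 to 1195 CPM) but mostly below it for Lum (4.30 to 13.3 CPM).

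Ligated vehicle libraries were uniform in Dcn and spread in Lum. The coefficient of variation was 10.9% for Dcn and 45.7% for Lum. Vehicle library 9 was the lowest of its group in both genes. Library 6 was the highest in Dcn, while library 3 was the highest in Lum at 36.4 CPM with a Dcn level of 983 CPM, close to the median. Libraries 3 and 6 held the highest Lum levels of all 48 libraries, and each comparison of Lum with vehicle was also made without them.

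Sora lowered both genes relative to ligated vehicle. Dcn had a lowest value of 443 CPM, a median of 546 and a highest of 655, with a mean of 549 ± 75.0 CPM (SD, n = 10), so that all 10 libraries lay below all vehicle libraries. Its log2 fold change was -0.81 (SE 0.136, edgeR adjusted p = 8.03e-06). Lum had a lowest value of 5.58 CPM, a median of 7.38 and a highest of 14.4, with a mean of 8.23 ± 2.69 CPM (SD, n = 10). All 10 Lum values were under the vehicle median and 5 were below every vehicle library. The log2 fold change of Lum was -1.16 (SE 0.213, edgeR adjusted p = 3.58e-05), and it was -0.87 without vehicle libraries 3 and 6 (edgeR adjusted p = 0.00076). Both members were called lower, as were 13.0% of all genes tested. The mitochondrial share of reads was 1.72% ± 0.105 with Sora (SD, n = 10), above the 1.42% of vehicle, with ranges that met only at 1.54%. With the quality component the log2 fold changes were -0.83 for Dcn and -1.09 for Lum, both called. That component overlapped between the groups, from -1.90 to -0.02 with Sora and from -1.72 to -0.47 in vehicle. The fit therefore need not account for the mitochondrial difference.

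Nint also lowered both genes. Dcn ranged from 476 to 740 CPM with a median of 623 and a mean of 610 ± 89.3 CPM (SD, n = 10), and 9 of 10 libraries were below every vehicle library. Library 1, at 740 CPM, reached into the vehicle range only above vehicle library 9. Its log2 fold change was -0.66 (SE 0.136, edgeR adjusted p = 0.000204). Lum ranged from 6.43 to 14.7 CPM with a median of 11.0 and a mean of 10.9 ± 2.19 CPM (SD, n = 10). All 10 Lum values were under the vehicle median, but only 1 was below every vehicle library. For Lum the log2 fold change was -0.75 (SE 0.211, edgeR adjusted p = 0.00598). Both members were called lower, as were 10.9% of all genes. The Lum call was lost without vehicle libraries 3 and 6, at a log2 fold change of -0.46 (edgeR adjusted p = 0.0874), and in limma on the authors' log2 CPM values, at -0.66 (adjusted p = 0.0741). In limma-voom it was -0.50 (adjusted p = 0.00717). The Dcn call held in all 32 alternatives, with log2 fold changes from -0.69 to -0.62.

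With SB525334 the genes parted. Dcn had a lowest value of 837 CPM, a median of 998 and a highest of 1195, with a mean of 1030 ± 109 CPM (SD, n = 9). These values overlapped those of ligated vehicle, 3 libraries lying above every vehicle library and none below. Its log2 fold change was 0.10 with a 95% interval from -0.18 to 0.38 (edgeR adjusted p = 0.523). Lum had a lowest value of 4.30 CPM, a median of 6.61 and a highest of 13.3, with a mean of 7.09 ± 2.74 CPM (SD, n = 9). All 9 Lum values were under the vehicle median and 6 were below every vehicle library. For Lum the log2 fold change was -1.36 (SE 0.225, edgeR adjusted p = 7.07e-07). Thus 1 of the 2 members was called, against 73.0% of all genes in this comparison.

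The Dcn result depended on how libraries were scaled. TMM factors ran from 0.775 to 0.899 in SB525334 libraries and from 1.08 to 1.15 in vehicle libraries. With library totals alone, Dcn was lower with SB525334 than with vehicle, at a log2 fold change of -0.31 (edgeR adjusted p = 0.0326). That scaling moved the median log2 fold change of all genes in this comparison from 0.04 to -0.38, so that Dcn lay just above the median gene under both scalings. Lum remained below the median gene under both, at -1.75 with library totals.

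SB525334 libraries also differed from ligated vehicle in quality measures. The share of reads mapped to more than a single place was 14.4% ± 3.44 (SD, n = 9) against 8.54% ± 0.235 (SD, n = 10), and the mitochondrial share was 2.86% ± 0.677 against 1.42% ± 0.0644. The quality component ran from -0.14 to 2.11 in SB525334 libraries and from -1.72 to -0.47 in vehicle libraries, without overlap. The part of these measures in the results therefore cannot be told apart from that of the compound. With the component in the fit, Lum was called lower at a log2 fold change of -1.06 (edgeR adjusted p = 0.0249). Within the group, libraries 1, 6 and 8 had the lowest shares of multiply mapped reads, 11.3%, 9.85% and 10.9%. Libraries 6 and 8 also had the highest Lum levels, 13.3 and 9.18 CPM, and library 1 stood at 6.71 CPM. Without these 3 libraries the log2 fold change of Lum against vehicle was -1.66 (edgeR adjusted p = 1.42e-07). That of Dcn was 0.10 (edgeR adjusted p = 0.577). The larger fall of Lum followed from leaving out libraries 6 and 8. The libraries kept had the higher multiply mapped shares, farther from vehicle, so this fit cannot judge the part of quality.

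Under every compound both genes stayed far above sham. Against sham slices the log2 fold change of Dcn was 3.98 with Sora, 4.13 with Nint and 4.89 with SB525334. Lum stood at 4.42, 4.83 and 4.22 in the same order. All 6 values were called by edgeR, with adjusted p between 1.85e-29 and 2.13e-16, and no compound library overlapped a sham library in either gene. The share of all genes without such overlap was not counted. The share of all genes called higher than sham was 40.1% with Sora, 40.0% with Nint and 42.9% with SB525334. Expressed as the part of the rise in mean CPM that remained, Dcn kept 55.6% with Sora, 62.1% with Nint and 107% with SB525334. Lum kept 43.9%, 58.5% and 37.5%. With library totals, the part left with SB525334 was 79.8% for Dcn and 28.5% for Lum. These comparisons share the sham and vehicle libraries.

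**Figure D2:**
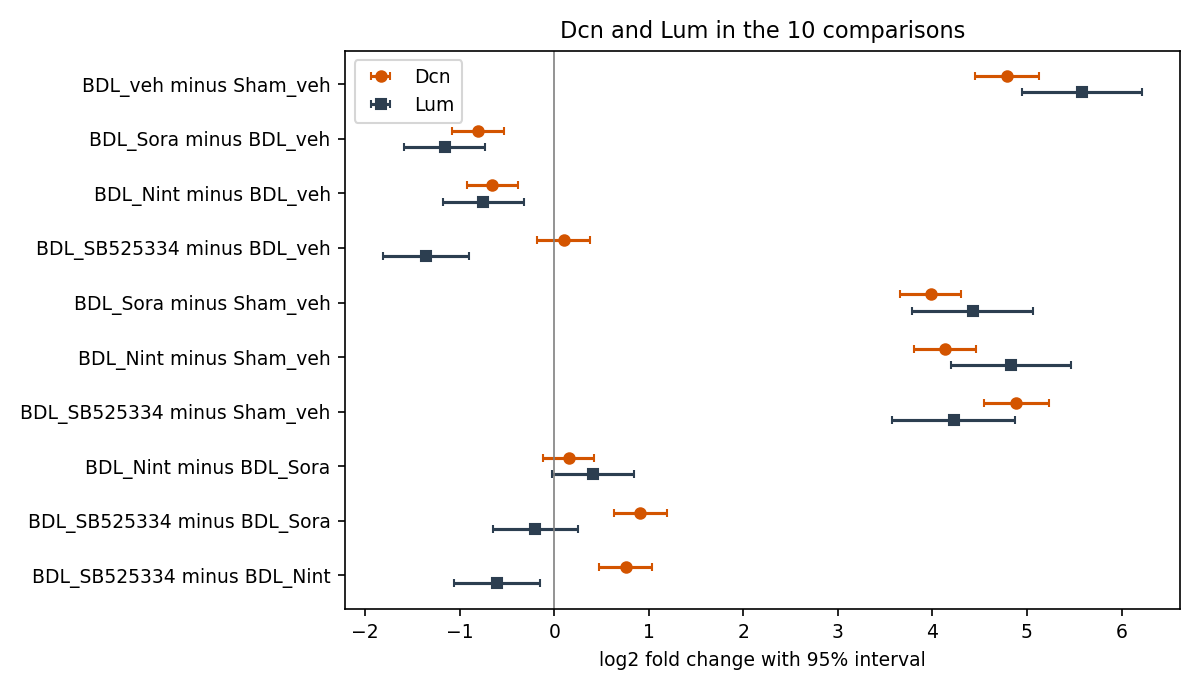
Log2 fold changes of Dcn (circles) and Lum (squares) in the 10 comparisons between groups, with 95% intervals from edgeR's quasi-likelihood fit. In the 3 rows that set SB525334 against another ligated group, Dcn lies at 0.10, 0.91 and 0.76 while Lum lies at -1.36, -0.20 and -0.61.

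The compounds were then compared with each other, as groups, since their doses are not given. Between Nint and Sora neither gene was called, against 2.32% of all genes. The log2 difference, Nint minus Sora, was 0.15 for Dcn (95% interval -0.12 to 0.42, edgeR adjusted p = 0.637) and 0.41 for Lum (-0.02 to 0.84, edgeR adjusted p = 0.354). For Lum, 9 of 10 Nint libraries stood above the Sora median, and limma-voom with sample weights called the difference at 0.59 (adjusted p = 0.0153). SB525334 libraries held more Dcn than Sora libraries, at a log2 difference of 0.91 (SE 0.139, edgeR adjusted p = 1.46e-07), and more than Nint libraries, at 0.76 (SE 0.139, edgeR adjusted p = 4.83e-06). All 9 SB525334 libraries were above every Sora and every Nint library. With library totals these differences were smaller, 0.55 and 0.37, and still called.

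Lum was not called between SB525334 and Sora, at a log2 difference of -0.20 (95% interval -0.65 to 0.25, edgeR adjusted p = 0.43). With library totals it was called lower, at -0.54 (edgeR adjusted p = 0.0286), and with the quality component it stood at 0.028 (edgeR adjusted p = 0.954). It was -0.50 without SB525334 libraries 1, 6 and 8 (edgeR adjusted p = 0.0653). Leaving out libraries 6 and 8, the highest of their group in Lum, lowers this value by construction. Against Nint, Lum was lower with SB525334, at -0.61 (SE 0.225, edgeR adjusted p = 0.0146), with 4 of 9 libraries below every Nint library. This call was lost with the quality component, at -0.34 (edgeR adjusted p = 0.448), while library totals gave -0.97. The component did not overlap between SB525334 (-0.14 to 2.11) and Nint (-1.27 to -0.30), so that fit cannot tell quality and compound apart. With Sora (-1.90 to -0.02) it overlapped through SB525334 library 6 alone, so the fit against Sora can hardly do so either. In the comparison of SB525334 with Sora 72.4% of all genes were called, and in that with Nint 72.7%.

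The order of the mean levels differed between the genes, as scaled with TMM factors. For Dcn it ran SB525334, ligated vehicle, Nint, Sora and sham from high to low. The neighbours SB525334 and vehicle, and Nint and Sora, were not separated by the test, while the steps from vehicle to Nint and from Sora to sham were. With library totals vehicle stood above SB525334, at 1074 against 863 CPM, and that step was called. For Lum it ran ligated vehicle, Nint, Sora, SB525334 and sham. Here Nint and Sora, and Sora and SB525334, were not separated, while vehicle from Nint and SB525334 from sham were. Of these Lum steps, SB525334 from sham was called in all 30 alternatives, while each of the other 3 changed its call in at least 1 alternative given above.

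To compare the genes within a library, free of its scaling, the log2 ratio of Lum counts to Dcn counts was taken after adding 1 count to each. Its level also carries the lengths of the transcripts, so only its differences between groups are read. Group by group, the ratio averaged -6.38 ± 0.68 in sham (SD, n = 9), -5.83 ± 0.54 in ligated vehicle (SD, n = 10), -6.10 ± 0.41 with Sora (SD, n = 10), -5.82 ± 0.21 with Nint (SD, n = 10) and -7.24 ± 0.48 with SB525334 (SD, n = 9). In summed counts there were 19.0 Lum counts per 1000 Dcn counts in ligated vehicle, 14.5 with Sora, 17.9 with Nint and 7.08 with SB525334. Sham slices held 10.6, from 47 Lum counts of which library 4 gave 15. The median over libraries was 7.98 in sham and 6.06 with SB525334.

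The SB525334 ratio was lower than that of every other group in two-sided exact permutation tests, with Benjamini-Hochberg adjustment over 10 pairs. The difference from ligated vehicle was -1.40 (adjusted p = 0.000433, exact permutation test). From Sora it was -1.14 (adjusted p = 0.000794, exact permutation test) and from Nint -1.42 (adjusted p = 0.000433, exact permutation test). Library 6 with SB525334, at -6.20, was the highest of its group and lay inside the range of the other ligated groups. From sham the difference was -0.86 (adjusted p = 0.0225, exact permutation test), a call that was lost when 0.5 counts were added in place of 1, at -0.70 (adjusted p = 0.0532, exact permutation test), and on the authors' log2 CPM, at -0.60 (adjusted p = 0.0926, exact permutation test).

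For Sora and Nint the ratio was not separated from that of vehicle. The difference was -0.26 with Sora (adjusted p = 0.3, permutation test with 100000 draws) and 0.02 with Nint (adjusted p = 0.939, permutation test with 100000 draws). Nint and Sora differed by 0.28 (adjusted p = 0.106, permutation test with 100000 draws), which became a call without Sora library 1, at 0.35 (adjusted p = 0.0374, exact permutation test). Neither ligation with vehicle, at 0.54 above sham (adjusted p = 0.106, exact permutation test), nor Sora, at 0.28 above sham (adjusted p = 0.317, exact permutation test), passed the threshold. Nint did, at 0.56 above sham (adjusted p = 0.0449, exact permutation test). That call was lost without any 1 of sham libraries 3, 5, 6, 7 and 8 or of Nint libraries 2, 3, 5, 6, 7, 8, 9 and 10, at adjusted p up to 0.0948 in exact permutation tests. Sham libraries held 1 to 15 Lum counts, so these differences depend on the count added. Adding 5 counts turned the direction of the ratio against sham for vehicle (-0.28), Sora (-0.52) and Nint (-0.25). On the authors' log2 CPM, ligated vehicle stood 0.81 above sham and was called (adjusted p = 0.0329, exact permutation test).

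**Figure D3:**
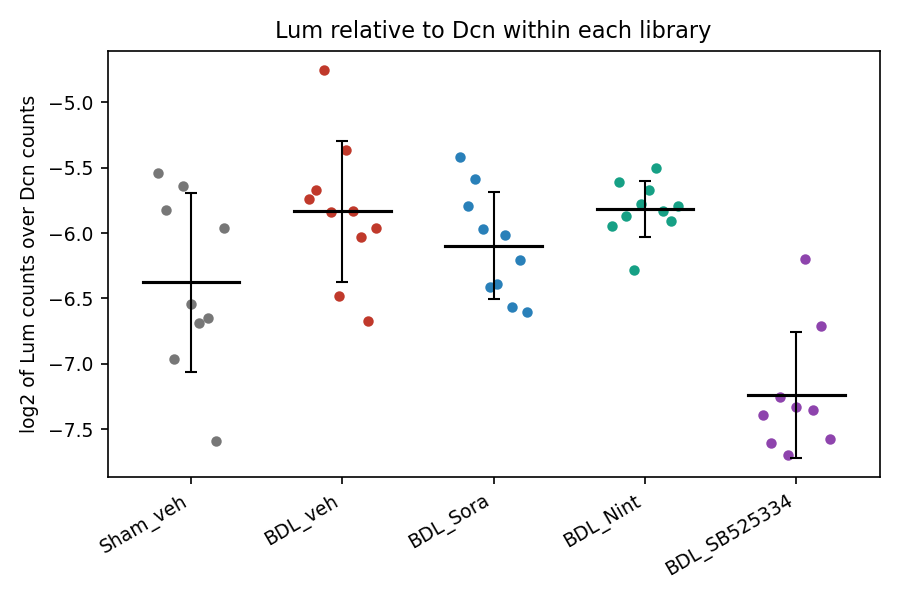
Log2 ratio of Lum to Dcn counts, with 1 count added to each, for every library by group, with the mean as a line and 1 SD as the error bar. SB525334 libraries average -7.24 and lie below the Nint libraries, which average -5.82, except for library 6 at -6.20.

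Whether Lum and Dcn varied together within a group was read from log2 CPM with a prior count of 2. In ligated vehicle Pearson's r was 0.79 (permutation p = 0.00914, adjusted over 5 groups 0.0308) and Spearman's rho 0.77 (permutation p = 0.0126, adjusted 0.0631) over 10 libraries. With Nint r was 0.74 (permutation p = 0.0123, adjusted 0.0308) and rho 0.67 (permutation p = 0.0393, adjusted 0.0983) over 10 libraries. Without the 2 libraries farthest from the median of Dcn, r was 0.47 in vehicle and 0.52 with Nint (adjusted permutation p = 0.402 for each). Neither relation passed the threshold over the 8 libraries left, which span a narrower range of Dcn. The vehicle relation also missed the threshold without any 1 of libraries 5, 6 and 9, and the Nint relation without any 1 of libraries 2, 4, 5 and 10. In sham slices r was 0.62 and rho 0.50 (exact permutation p = 0.0644 and 0.178, adjusted 0.107 and 0.296), with r at 0.37 without the 2 farthest libraries. Without sham library 8 it passed the threshold, at r = 0.75 (adjusted p = 0.0482, exact permutation test). With Sora r was 0.26 and rho 0.24 (permutation p = 0.476 and 0.516, adjusted 0.595 and 0.645), and r was 0.47 without the 2 farthest libraries. With SB525334 r was 0.19 and rho 0.12 (exact permutation p = 0.623 and 0.776, adjusted 0.623 and 0.776), and r was -0.35 without the 2 farthest libraries.

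**Figure D4:**
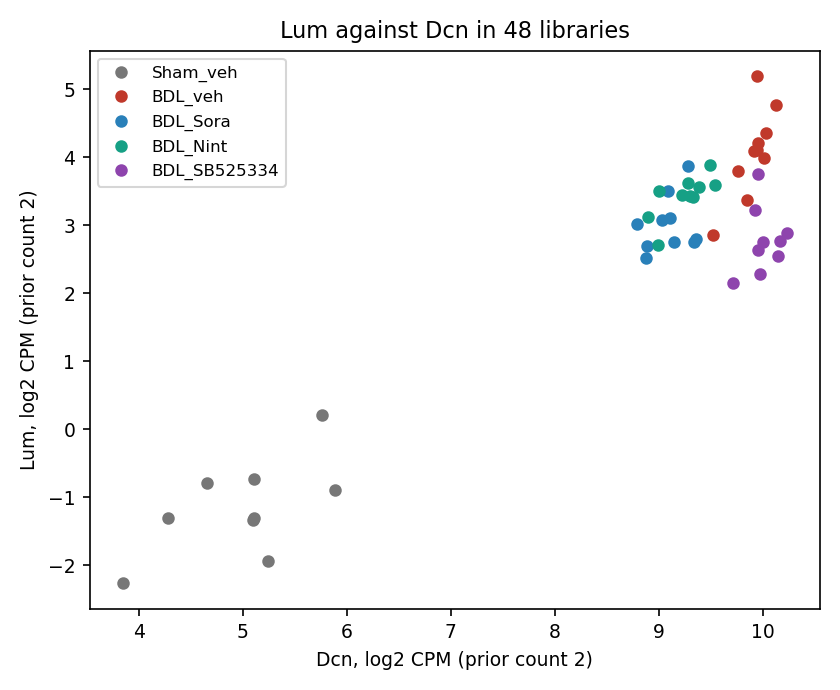
Lum against Dcn in log2 CPM with a prior count of 2, 1 point per library, coloured by group. Sham libraries lie far to the lower left. Sora libraries and 9 of 10 Nint libraries lie to the left of every vehicle library, and 6 of 9 SB525334 libraries lie below every vehicle library, in a Dcn range that overlaps that of vehicle.

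Across all 48 libraries the gene whose log2 CPM was most like that of Dcn was ENSRNOG00000009037, with Pearson's r of 0.990, and for Lum it was ENSRNOG00000054695, with r of 0.976. These r values are descriptions over libraries that fall into separate groups. ENSRNOG00000009037 averaged 13.6 ± 5.25 CPM in sham (SD, n = 9), 573 ± 57.9 in ligated vehicle (SD, n = 10), 313 ± 42.1 with Sora (SD, n = 10), 460 ± 47.5 with Nint (SD, n = 10) and 563 ± 99.1 with SB525334 (SD, n = 9). As for Dcn, its means with SB525334 and with vehicle lay within 1 SD of each other. ENSRNOG00000054695 averaged 6.28 ± 1.80 CPM in sham (SD, n = 9), 107 ± 13.3 in ligated vehicle (SD, n = 10), 77.1 ± 13.6 with Sora (SD, n = 10), 91.6 ± 12.4 with Nint (SD, n = 10) and 62.9 ± 17.3 with SB525334 (SD, n = 9). The order of its group means was that of Lum. Each of these 2 genes was picked by its r over the same 48 libraries. Their likeness to the members in group means therefore follows largely from that choice. The members themselves stood further apart, with r of 0.935, where Lum ranked 410 among the 14774 other genes for likeness to Dcn and Dcn ranked 245 for likeness to Lum. Lum held only 1 to 15 counts per sham library, and what counting error adds to this distance was not tested.

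**Figure D5:**
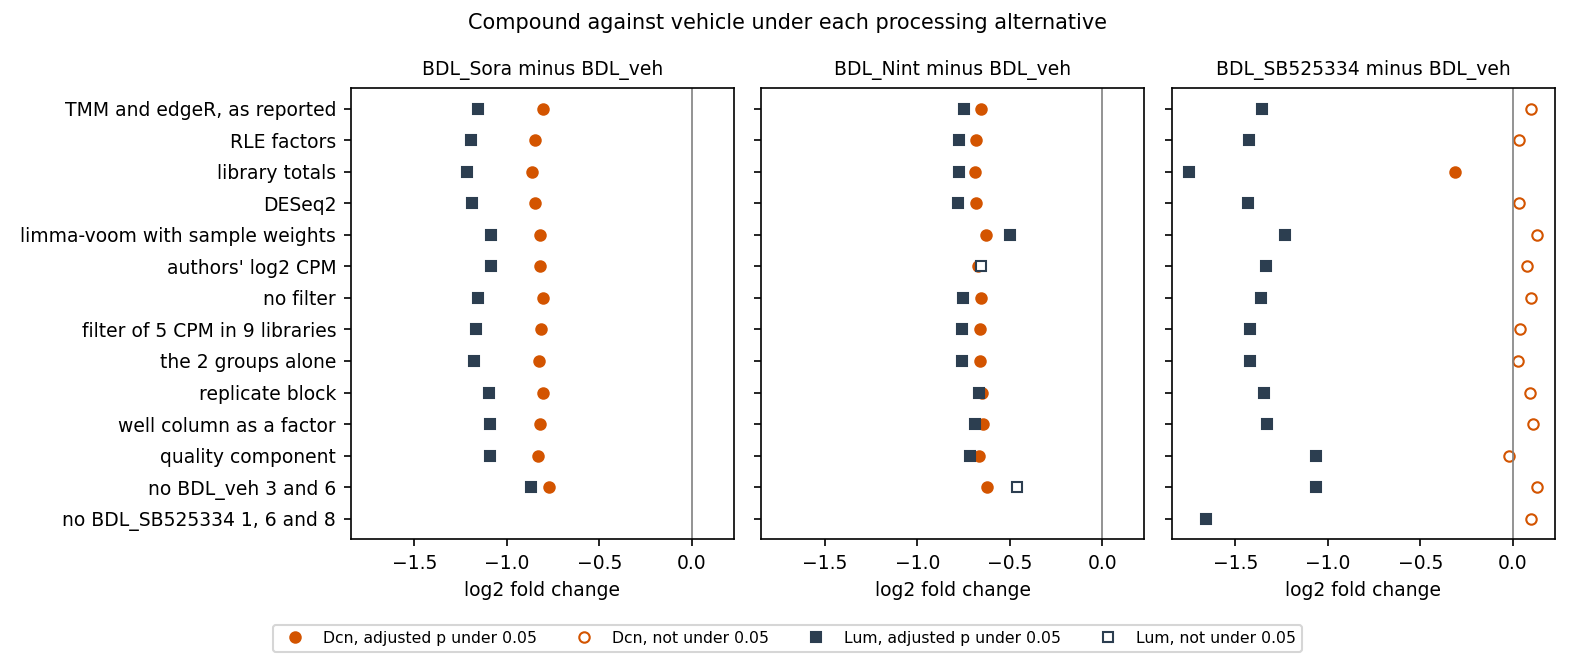
Log2 fold changes of Dcn (circles) and Lum (squares) for each compound against ligated vehicle under each processing alternative, filled where the adjusted p was under 0.05. Sora lowers both genes throughout, the Lum change with Nint loses its call in 2 alternatives, and Dcn with SB525334 is called in library totals alone.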

How the data were processed

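RNA from 48 slices was prepared with the RNeasy 96 kit and sequenced from standard Illumina libraries, per the labels' protocols. Per the submitters' processing notes, RSEM and edgeR were used with build Rnor_6.0, and no versions are named. The aligner, annotation and strand setting of the counting were not given in the sources used here. Hence reads of overlapping antisense genes may be included. The authors deposited expected counts for 32883 genes, 8.02% of them not whole at a tolerance of 1e-06, and these were rounded. The authors also deposited log2 CPM values for 14418 genes and 172 quality metrics, a mix of percent values and other scores, of which the first principal component (35.7% of the variance of 151 varying metrics) served as the quality component.

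Genes were filtered with filterByExpr, which left 14775, both members included. The quasi-likelihood test of edgeR 4.0.16 (R 4.3.3) was fitted to all libraries with TMM factors and 1 coefficient per group, and p-values were adjusted by Benjamini-Hochberg over all genes in each of 10 comparisons, with a threshold of 0.05. Ratios and relations used permutation tests in Python 3.11.15 with NumPy 2.4.6, checked on simulated data like the edgeR step. Alternatives used DESeq2 1.42.0 and limma 3.58.1. Intervals cover counting error only where they are Poisson intervals. No libraries of a group agreed within sampling noise: chi-square over its degrees of freedom was at least 3.94 in all 207 pairs.

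The members, gene lists, tests and alternatives were chosen with earlier results of these data known. The named genes are the members and, for each, the gene with the highest Pearson r. Lists of other proteoglycans, collagens, chain-building enzymes, TGF-beta genes, proteases and cell type markers need symbols. The gene table (GRCr8, 47357 genes) holds 0 Ensembl identifiers, so none of these lists was used. The promoter table matched 1 of the 2 members, Lum.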

Additional observations from a re-analysis of the deposited data

Results flagged for a closer look

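Lum in sham library 4 stood at 1.02 CPM, and the next highest sham library at 0.472 CPM. The gap was 0.58 of the whole range of the 9 sham values, above the critical value of 0.493 for a single distant sample. It was the only one flagged among 15 sets of values tested (each gene and their ratio in 5 groups), where chance flags about 1 in 20. Dcn in the same library was 54.3 CPM, the second highest of the sham group. Every ligated library held more Lum than this library.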

How the results depend on the processing

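Leaving out each library in turn changed direction or call in none of 192 values for Dcn and 192 for Lum. Of 118 other alternatives for each gene, 116 for Dcn and 112 for Lum kept direction and side of the threshold. With library totals, Dcn between SB525334 and vehicle was -0.31 and Lum between SB525334 and Sora -0.54. With the quality component these were -0.019 and 0.028, and Lum between SB525334 and Nint was -0.34. Lum between Nint and vehicle was -0.66 on the authors' log2 CPM and -0.46 without vehicle libraries 3 and 6, and Lum between Nint and Sora was 0.59 in limma-voom. The cause was not tested for any of these. With library totals the mean Dcn level was 1074 CPM in vehicle and 863 CPM with SB525334.

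For the ratio, adding 5 counts gave -0.28 (vehicle), -0.52 (Sora) and -0.25 (Nint) against sham, by construction since Lum counts there were few. SB525334 against sham was -0.70 with 0.5 counts added and -0.60 on the authors' log2 CPM, where vehicle against sham was 0.81 (adjusted p = 0.0329, exact permutation test). Leaving out single libraries gave 0.41 to 0.66 for Nint against sham, -0.078 to 0.14 for Nint against vehicle and 0.22 to 0.35 for Nint against Sora. The relation of Lum to Dcn ranged likewise from 0.40 to 0.75 in sham, 0.59 to 0.92 in vehicle, 0.68 to 0.85 with Nint and -0.25 to 0.45 with SB525334. Its r was 0.73 in vehicle and 0.70 with Nint with library totals (adjusted permutation p = 0.0664 for each), and 0.47, 0.52 and -0.35 in vehicle, Nint and SB525334 without the 2 libraries farthest from the median of Dcn.

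Replicate numbers gave no clear pairing of the libraries. With number 10 left out, 25 of 90 same-numbered pairs correlated above 0.1, with a median r of 0.016 and a highest of 0.55. Only 6 of 48 libraries correlated best with a library of their own number. Pairs with different numbers were not summarized, so these counts have no baseline. The replicate block changed no call for either gene, with Sora against vehicle at -0.80 for Dcn and -1.10 for Lum, and moved the count of calls for ligation from 12146 to 12111. Counts of all genes called moved by over 1.5 times in 3 comparisons. For Nint against Sora they ran from 161 (plate column, inferred from the library codes and not stated in the labels) to 3695 (limma-voom) beside 343. The highest counts, in limma-voom, were 7581 for Sora against vehicle beside 4323 and 6452 for Nint against vehicle beside 3587. Sham Lum, with 1 to 15 counts per library, is where depth limits precision most.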
